A study of Homo sapiens with 9 samples.

Results

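The solute carrier (SLC) genes expressed in EGI-1 bile duct cancer cells were followed across 2 hairpins against the transcription factor gene FOSL1 and a control hairpin. They were taken as every protein-coding gene whose symbol starts with SLC and a digit and whose mean over the 9 libraries was at least 10 raw counts, with SLC7A11, SLC2A1, SLC16A3 and SLC43A3 left out by name. This gave 188 genes of the 58381 in the count tables. Of the 377 coding genes with such a symbol, 65 were listed at 0 in all 9 libraries, 120 had some counts but a lower mean, and 4 were the ones left out. The mean raw count alone chose the genes, and it is not read as a result. SLC10A7, SLC4A3, SLC51A and SLC30A4 lay just inside the minimum at 10.2, 10.3, 10.4 and 10.7 counts. SLC25A27, SLC1A2 and SLC9A2 lay just outside at 9.78, 9.78 and 9.44 counts.

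EGI-1 is an established human cholangiocarcinoma cell line, grown here in medium with serum. The FOSL1sh3 and FOSL1sh10 cells expressed different short hairpin RNAs against FOSL1, which encodes the AP-1 subunit FRA-1, and the GFPsh cells expressed a hairpin against GFP as the control. All 3 groups received doxycycline, 2 ug per ml for 4 days, were seeded for 24 hours and were then harvested. The sample titles name a tetracycline-controlled (TET) construct, and each group had 3 libraries of a low-input RNA-seq protocol (MARS-seq). The labels do not say whether the replicates were separate cultures, so each p-value refers to the spread among these libraries alone, which may be technical. They do not say either whether a group was a single clone or a pool of transduced cells. In bulk RNA, fewer cells of a type and less RNA per cell cannot be told apart.

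Solute carriers are membrane proteins that move amino acids, sugars, nucleosides, metal ions, inorganic ions, vitamins and metabolites across the plasma membrane and the membranes of organelles, by facilitated diffusion, exchange or cotransport. The SLC25 family carries metabolites across the inner mitochondrial membrane, and the SLC35 family brings nucleotide sugars and related donors into the Golgi apparatus and endoplasmic reticulum. In bile duct epithelium, such transporters take part in bicarbonate secretion and in the uptake of bile acids, glucose and amino acids, and in tumour cells uptake carriers such as the SLC7A5 and SLC3A2 pair supply essential amino acids for growth.

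Library totals ranged from 6893026 to 10604251 counts, so that a gene without counts could lie as high as 0.283 to 0.435 CPM (3 counts over the library total, where CPM is the count scaled to a fixed library size). FOSL1 itself lay at 44.9 to 72.3 CPM in FOSL1sh3, 57.1 to 70.9 CPM in FOSL1sh10 and 182 to 303 CPM in GFPsh, so that log2 of FOSL1sh3 over GFPsh was -1.98 (SE 0.20, adjusted p = 1.2e-05) and log2 of FOSL1sh10 over GFPsh was -1.94 (SE 0.20, adjusted p = 1.03e-05). All 8 epithelial and biliary markers were detected, with summed levels of 12228 to 13589 CPM in FOSL1sh3, 10994 to 12961 CPM in FOSL1sh10 and 10946 to 11784 CPM in GFPsh. None of 6 leukocyte and none of 6 hepatocyte markers passed the filter on low counts, and their sums stayed at or under 1.13 CPM in every library. Of 7 fibroblast and endothelial markers, 1 passed it (COL1A1). Their sum was 4.31 to 8.02 CPM in FOSL1sh3, 8.13 to 9.58 CPM in FOSL1sh10 and 2.93 to 4.74 CPM in GFPsh, so that FOSL1sh10 lay above GFPsh, and its part in the results was not tested.

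All 188 solute carrier genes passed the filter on low counts and entered a test over 12814 genes. A gene was called when its Benjamini-Hochberg adjusted p over all genes tested was under 0.05 in edgeR's quasi-likelihood test. With FOSL1sh3, 22 solute carrier genes were called against GFPsh (11.7%), 12 higher and 10 lower, where 10.9% of all genes tested were called. With FOSL1sh10, 15 were called (7.98%), 11 higher and 4 lower, against 5.28% of all genes tested. The share with FOSL1sh3 is therefore near that of all genes. Among these calls, SLC22A4 (higher with FOSL1sh10) and SLC30A4 (lower with FOSL1sh3) had passed the minimum of 10 counts only through the group where each was high. That group was FOSL1sh10 for SLC22A4 and GFPsh for SLC30A4. The median log2 fold change of the solute carrier genes was -0.02 with FOSL1sh3 and 0.08 with FOSL1sh10, and that of all genes tested was 0.01 and 0.00.

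These counts, like those over all genes tested, depended on single libraries. The main fit called 1392 of 12814 genes with FOSL1sh3 and 676 with FOSL1sh10. Leaving out GFPsh replicate 1, 2 or 3 gave 7, 12 and 9 solute carrier calls with FOSL1sh3. Over all 13284, 13147 and 13134 genes tested in these fits, it gave 599, 895 and 747. Leaving out FOSL1sh3 replicate 1 or 3 gave 13 each, beside 990 and 756 over all genes. For FOSL1sh10, leaving out GFPsh replicate 1, 2 or 3 gave 5, 7 and 9 calls, beside 397, 416 and 415 over all genes. Leaving out 1 of its own libraries gave 5, 6 and 6, beside 422, 347 and 373 over all genes. A fit of FOSL1sh3 and GFPsh without the FOSL1sh10 libraries gave 13 calls, beside 966 of 12414 genes tested. A fit of FOSL1sh10 and GFPsh without the FOSL1sh3 libraries gave 22, beside 1124 of 12514 genes. Which hairpin has more calls therefore depends on this choice, for all genes too. The FOSL1sh3 calls lost without the FOSL1sh10 libraries were those of SLC12A7, SLC25A40, SLC25A13, SLC31A1, SLC22A18, SLC39A13, SLC25A35, SLC44A2 and SLC4A11. With scaling by library totals alone, the median log2 fold change of all genes tested was -0.06 with FOSL1sh3, 0.11 with FOSL1sh10 and -0.17 for FOSL1sh3 over FOSL1sh10, where TMM gave 0.01, 0.00 and 0.00. On that scaling there were 7 higher and 10 lower calls with FOSL1sh3, and 15 higher and 3 lower calls with FOSL1sh10. Of all genes called there, 34.0% were higher with FOSL1sh3 and 77.5% with FOSL1sh10. This scaling ended the FOSL1sh3 calls of SLC12A7, SLC22A18, SLC39A13, SLC25A35 and SLC44A2, and the FOSL1sh10 call of SLC2A3.

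A single gene, SLC7A5, rose with both hairpins (0.532% of the solute carrier genes). Of all genes tested, 1.55% were called with both in the same direction, 1.02% higher and 0.531% lower. SLC7A5 is 4.55% of the FOSL1sh3 calls and 6.67% of the FOSL1sh10 calls, and both comparisons use the same GFPsh libraries. Over all genes tested, 199 were shared in direction, out of 1392 FOSL1sh3 calls and 676 FOSL1sh10 calls, which are larger shares. SLC16A5 was called with both hairpins in opposite directions, where 0.148% of all genes tested were. In all, 35 solute carrier genes (18.6%) were called with at least 1 hairpin, beside 14.4% of all genes tested. Of these 35, 15 were also called between the hairpins, so a call with 1 hairpin does not by itself set the hairpins apart. In all, 140 genes were called in no comparison.

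**Figure D1:**
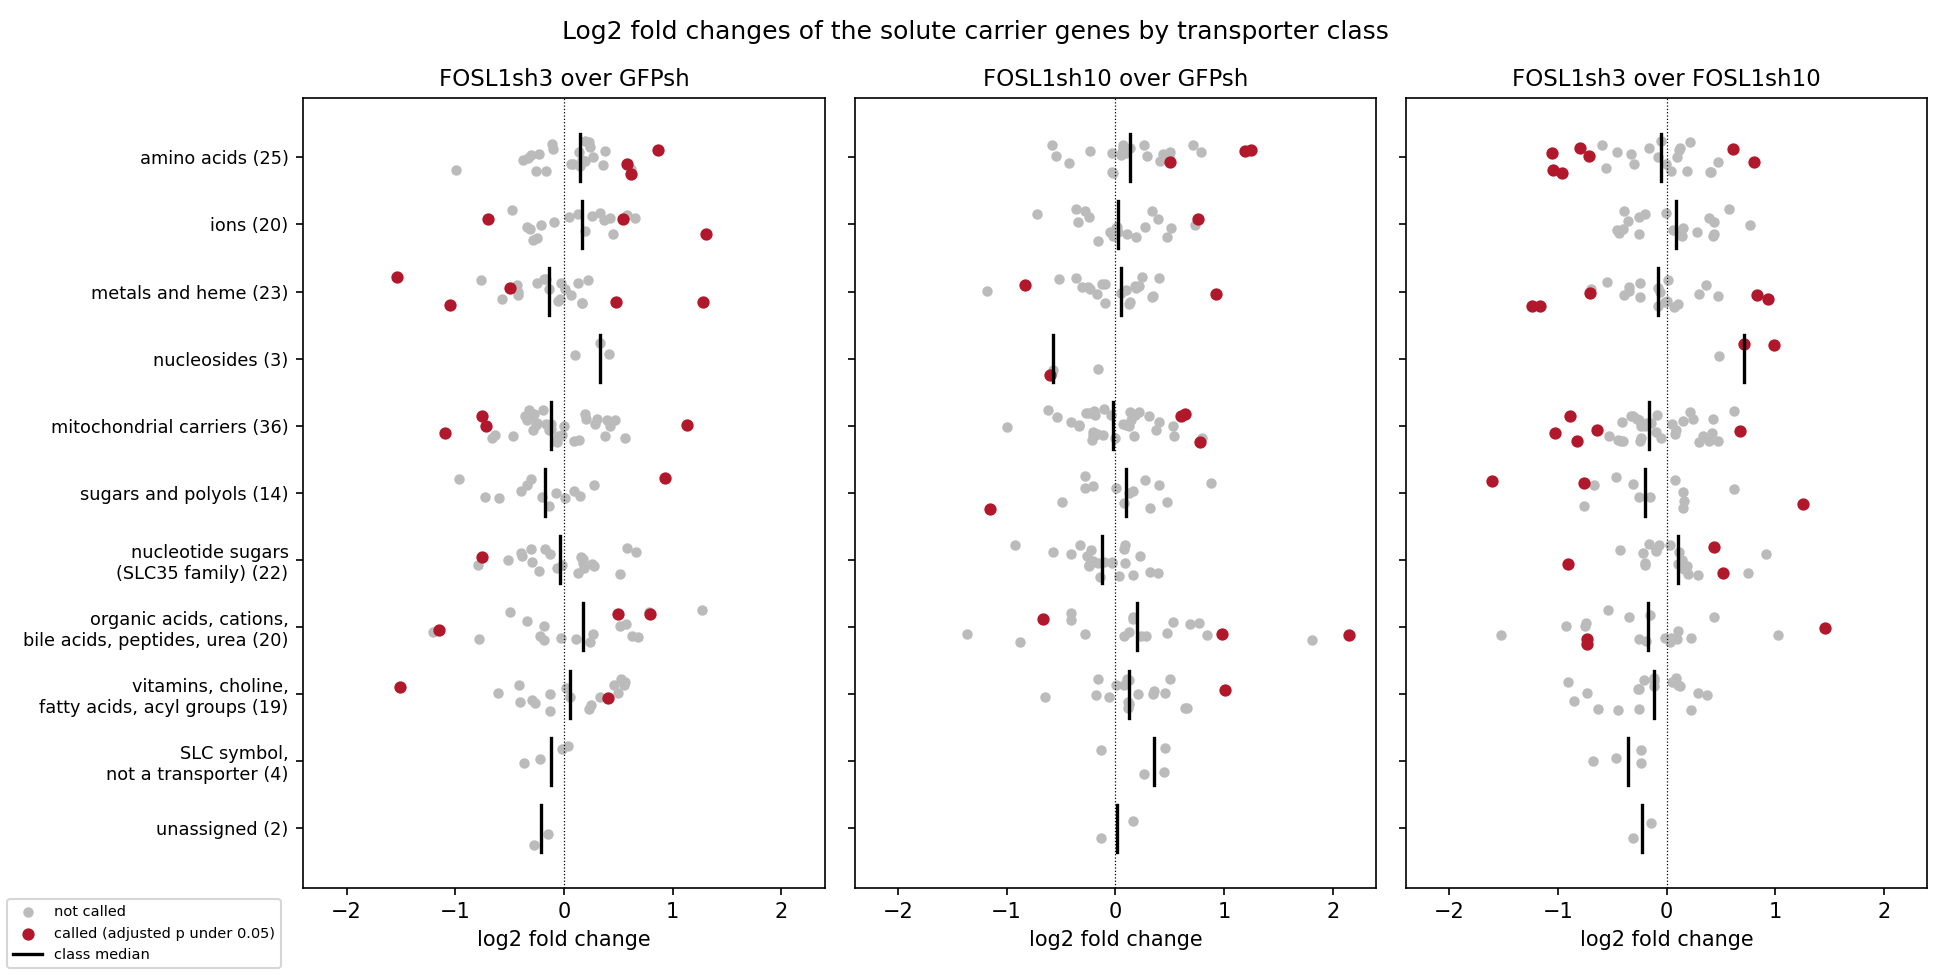
Log2 fold change (x axis) of each solute carrier gene by transporter class (y axis, number of genes in parentheses) for FOSL1sh3 over GFPsh, FOSL1sh10 over GFPsh and FOSL1sh3 over FOSL1sh10. Red points are the 22, 15 and 28 called genes, and black bars are class medians, which lie at 0.33, -0.57 and 0.71 for the 3 nucleoside transporters.

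Among the 25 amino acid transporters, 3 rose and none fell with FOSL1sh3 (median log2 fold change 0.15), where 5.21% of all genes tested were called higher and 5.65% lower. With FOSL1sh10, 3 rose and none fell (median 0.14), where 3.13% of all genes were called higher and 2.15% lower. The genes that rose were SLC7A5, SLC7A2 and SLC38A10 with FOSL1sh3, and SLC7A5, SLC43A2 and SLC6A9 with FOSL1sh10. The summed level of the class was higher with both hairpins, at 1120 to 1172 CPM in FOSL1sh3, 1165 to 1263 CPM in FOSL1sh10 and 869 to 990.1 CPM in GFPsh. All 6 hairpin libraries lay above all 3 GFPsh libraries, also when scaled by library totals alone or by size factors.

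SLC7A5 (chr16:87830023-87869488 in hg38, minus strand) encodes LAT1, the light chain that exchanges large neutral amino acids such as leucine. It had 255, 259 and 245 CPM in the FOSL1sh3 libraries, 240.3, 223 and 237 CPM in the FOSL1sh10 libraries, and 174, 185 and 135 CPM in the GFPsh libraries. Every hairpin library was above every GFPsh library. The log2 fold change was 0.62 (SE 0.14, adjusted p = 0.00926) with FOSL1sh3 and 0.50 (SE 0.14, adjusted p = 0.0391) with FOSL1sh10. The FOSL1sh3 call was kept in all 15 alternatives. The FOSL1sh10 call was lost on leaving out any FOSL1sh10 library, GFPsh replicate 1 or GFPsh replicate 3, with adjusted p up to 0.185. SLC7A5 has related pseudogenes, so reads that map to several places may be missing from its count.

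SLC3A2 (chr11:62856102-62888875, plus strand) encodes CD98hc, the heavy chain that brings SLC7A5 to the cell surface. Its level was 488, 412 and 480.2 CPM in FOSL1sh3, 479, 578 and 491 CPM in FOSL1sh10, and 434, 304 and 407 CPM in GFPsh. The lowest FOSL1sh3 library lay within the GFPsh range, whereas the FOSL1sh10 libraries lay above it. It was not called with either hairpin, where log2 was 0.27 for FOSL1sh3 (SE 0.15, adjusted p = 0.27) and 0.44 for FOSL1sh10 (SE 0.15, adjusted p = 0.111). SLC7A5 and SLC3A2 held most of the class difference in summed CPM, with 88.5 and 78.4 CPM of 222 CPM in FOSL1sh3 over GFPsh, and 68.9 and 134 CPM of 268 CPM in FOSL1sh10 over GFPsh.

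The promoters of these genes are shown because FRA-1 is a subunit of AP-1, whose palindromic site reads TGANTCA. RefSeq windows (GRCh38.p14) from 250 bases before to 50 bases after the annotated start were matched by symbol for 155 of the 188 genes, and both strands were searched. Only the first window listed for each symbol was kept, so any other start sites of a gene were not searched. The SLC7A5 window (chr16:87869458-87869757, minus strand) held no TGANTCA. The windows of SLC3A2 (chr11:62881449-62881748, plus strand), SLC43A2 (chr17:1604985-1605284, minus strand) and SLC29A3 (chr10:71319009-71319308, plus strand) were chosen after their values were seen. Each held 1 match, printed in capitals. SLC15A1, SLC2A12, SLC38A1, SLC50A1, SLC6A14 and SLC9A8 also held 1 match each, and their windows are not shown. Among the windows shown, the match lies 37 bases before the start in SLC3A2, 34 bases before it in SLC43A2 and 186 bases before it in SLC29A3. The SLC3A2 window lies inside the gene span given above, so its start is not the first base of the counted gene.
SLC7A5: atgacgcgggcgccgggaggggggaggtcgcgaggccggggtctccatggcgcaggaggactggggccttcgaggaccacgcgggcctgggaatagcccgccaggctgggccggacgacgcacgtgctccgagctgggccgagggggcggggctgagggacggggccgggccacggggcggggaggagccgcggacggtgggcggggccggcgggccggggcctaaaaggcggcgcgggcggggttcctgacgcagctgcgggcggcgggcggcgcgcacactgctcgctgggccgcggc
SLC3A2: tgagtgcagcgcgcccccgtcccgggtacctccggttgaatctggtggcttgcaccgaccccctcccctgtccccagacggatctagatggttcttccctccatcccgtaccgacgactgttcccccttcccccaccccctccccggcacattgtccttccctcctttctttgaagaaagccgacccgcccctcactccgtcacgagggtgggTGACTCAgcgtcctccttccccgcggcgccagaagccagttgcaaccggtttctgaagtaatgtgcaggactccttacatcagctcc
SLC43A2: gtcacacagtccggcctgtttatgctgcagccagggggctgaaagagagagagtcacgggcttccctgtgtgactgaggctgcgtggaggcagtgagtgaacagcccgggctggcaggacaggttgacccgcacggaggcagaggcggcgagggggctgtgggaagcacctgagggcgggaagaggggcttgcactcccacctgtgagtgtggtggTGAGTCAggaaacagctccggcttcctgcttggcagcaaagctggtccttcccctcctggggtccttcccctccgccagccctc
SLC29A3: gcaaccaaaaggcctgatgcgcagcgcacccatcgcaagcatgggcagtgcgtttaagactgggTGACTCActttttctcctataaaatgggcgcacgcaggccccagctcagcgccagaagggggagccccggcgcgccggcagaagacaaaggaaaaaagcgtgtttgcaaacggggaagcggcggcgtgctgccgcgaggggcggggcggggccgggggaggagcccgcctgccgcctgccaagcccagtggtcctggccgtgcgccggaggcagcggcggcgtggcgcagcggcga

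TGANTCA stood in 9 of the 155 solute carrier windows (5.81%) and in 2120 of all 27305 windows of that length (7.76%). Among the 25 matched genes called with at least 1 hairpin it stood in 1, SLC43A2. TGATGNAA, the core of the amino acid response element bound by ATF4, stood in 7 of the 155 windows (4.52%) and in 1003 of all windows (3.67%). Among the 25 matched genes called with at least 1 hairpin TGATGNAA stood in 0, and among the 130 others in 7. SLC3A2, which was not called, held a match to it on the reverse strand (TTACATCA), 37 bases after the start and apart from the TGANTCA match. These matches describe the letters in the window only, and a window without a match says nothing about binding.

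Of the remaining called amino acid transporters, SLC7A2, SLC38A10, SLC43A2 and SLC6A9 were called against GFPsh with 1 hairpin. SLC1A3, SLC6A6 and SLC38A1 were called only between the hairpins. SLC7A2, a cationic amino acid transporter that takes up arginine and lysine, had 24.7, 20.3 and 22.4 CPM in FOSL1sh3, 10.98, 14.7 and 12.8 CPM in FOSL1sh10, and 12.1, 12.2 and 12.7 CPM in GFPsh. The FOSL1sh3 libraries were all above the rest, while FOSL1sh10 overlapped GFPsh. The log2 fold change was 0.87 (SE 0.18, adjusted p = 0.00557) with FOSL1sh3 and 0.06 (SE 0.18, adjusted p = 0.899) with FOSL1sh10, and FOSL1sh3 against FOSL1sh10 gave 0.81 (adjusted p = 0.00678). SLC38A10, of the sodium-coupled neutral amino acid transporter family, had 73.1, 83.8 and 103 CPM in FOSL1sh3, 59.5, 52.5 and 58.2 CPM in FOSL1sh10, and 49.2, 65.7 and 59.1 CPM in GFPsh. FOSL1sh3 lay above both other groups, which overlapped. Its FOSL1sh3 call (log2 0.58, adjusted p = 0.0229) ended without FOSL1sh3 replicate 3 or GFPsh replicate 1 or 3, with adjusted p up to 0.12.

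SLC43A2, the facilitated transporter LAT4 for large neutral amino acids, moved with the other hairpin. Its level was 3.69, 5.34 and 4.58 CPM in FOSL1sh3, 11.1, 9.16 and 7.95 CPM in FOSL1sh10, and 4.28, 3.15 and 4.41 CPM in GFPsh. The FOSL1sh10 libraries stood above all others, and FOSL1sh3 overlapped GFPsh. The rise with FOSL1sh10 was 1.25 on the log2 scale (SE 0.26, adjusted p = 0.00701) and was called in all 15 alternatives. SLC6A9, the glycine transporter GlyT1, had 3.28, 3.03 and 1.53 CPM in FOSL1sh3, 5.99, 6.11 and 4.28 CPM in FOSL1sh10, and 2.21, 2.36 and 2.54 CPM in GFPsh. Its rise with FOSL1sh10 (log2 1.19, SE 0.33, adjusted p = 0.0388) was lost on leaving out any FOSL1sh10 or GFPsh library, with adjusted p up to 0.155. SLC1A3 (glutamate and aspartate), SLC6A6 (taurine) and SLC38A1 (glutamine) were not called against GFPsh but were lower in FOSL1sh3 than in FOSL1sh10, at log2 -0.96, -0.80 and -0.71. The SLC1A3 difference was lost without FOSL1sh10 replicate 3 (adjusted p = 0.0519), and that of SLC6A6 without FOSL1sh3 replicate 1 or FOSL1sh10 replicate 2 (adjusted p up to 0.138). The SLC38A1 difference had an adjusted p of 0.0376, and its lowest library was FOSL1sh3 replicate 3 at 25.1 CPM, beside 53.7 and 50.2 CPM in the other FOSL1sh3 libraries and 66.6 to 72.9 CPM in FOSL1sh10. Leaving out that library or any FOSL1sh10 library ended the call, with adjusted p up to 0.12.

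**Figure D2:**
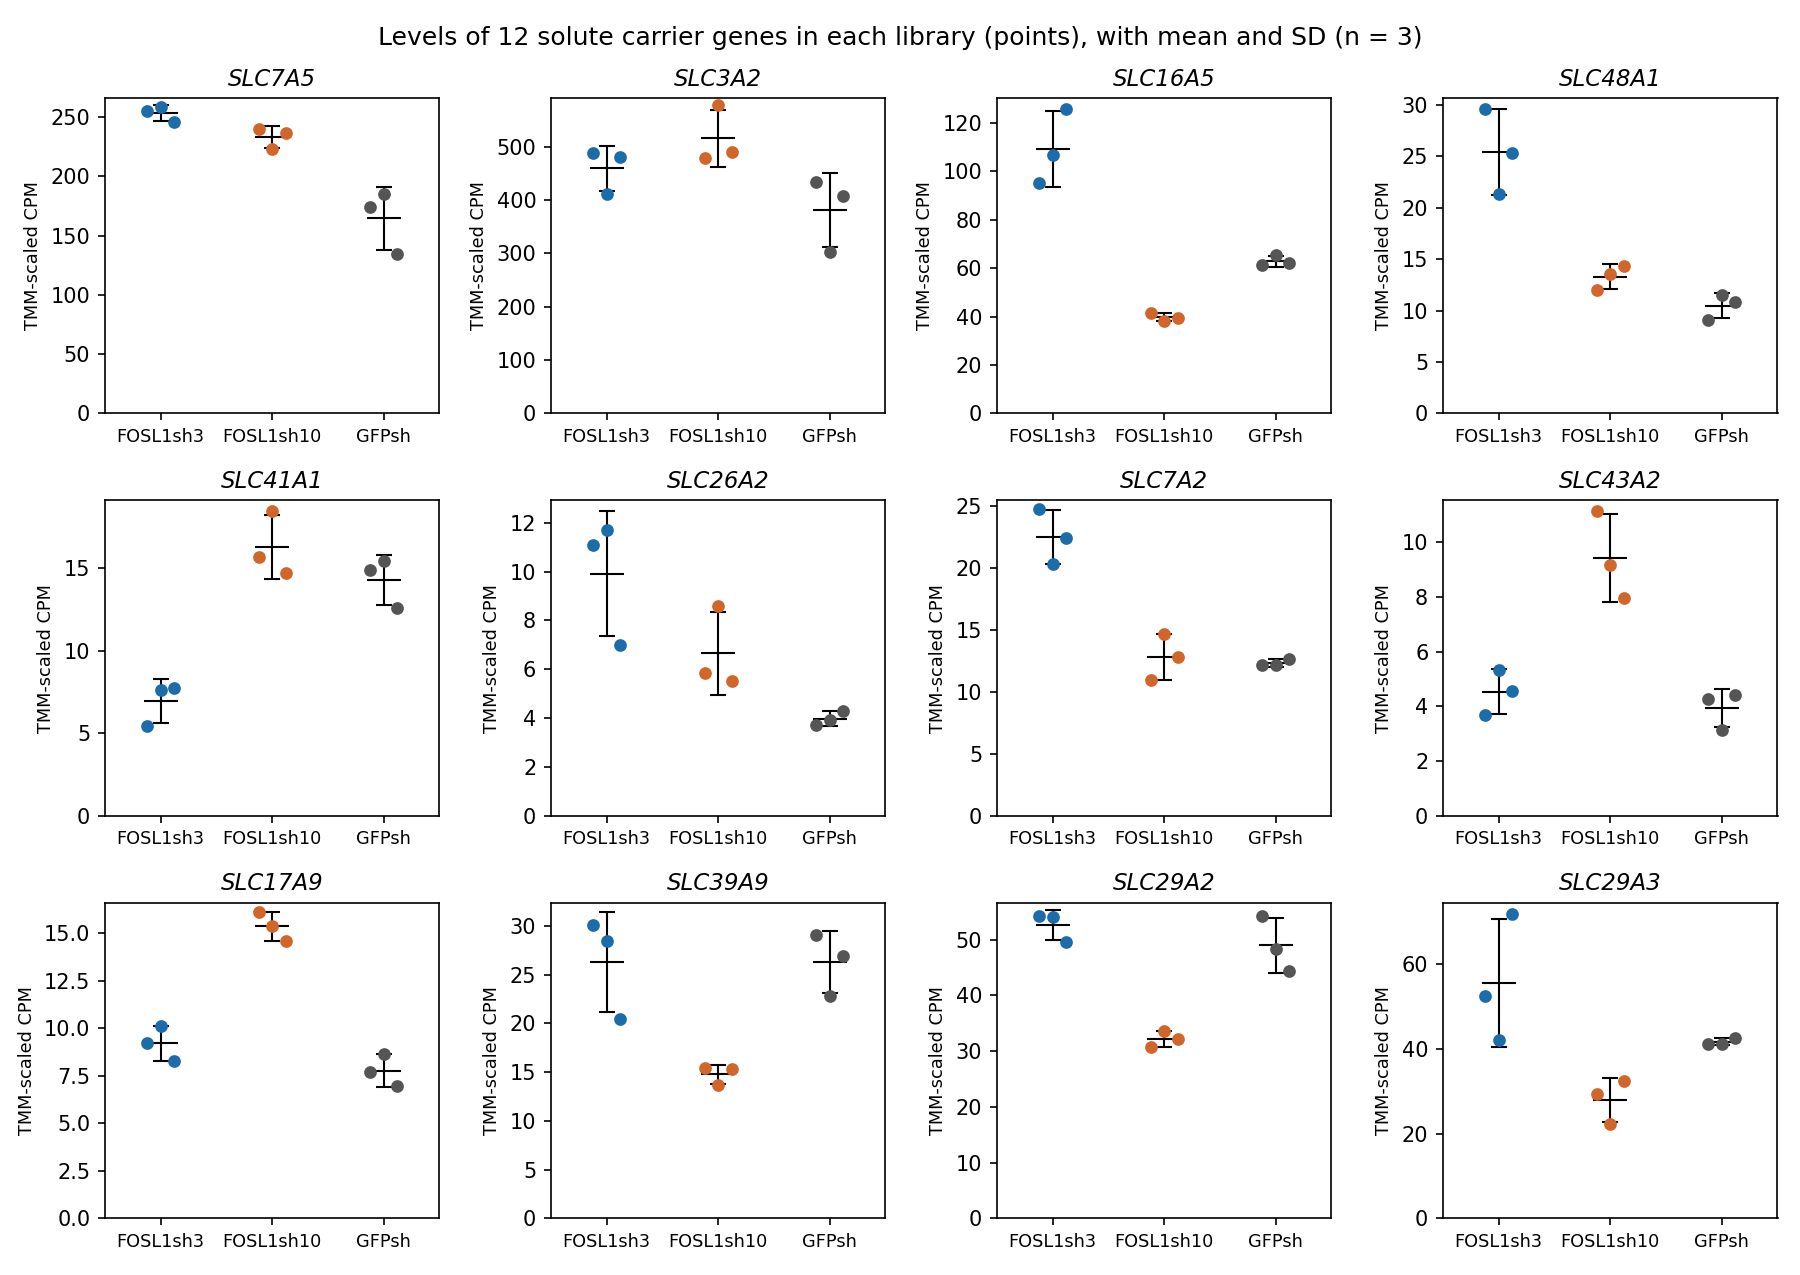
CPM scaled by TMM (y axis, from 0) of 12 solute carrier genes in each library of FOSL1sh3, FOSL1sh10 and GFPsh (x axis). Points are libraries, and black lines are the mean with the SD of 3 libraries. SLC16A5 lies at 95.0 to 126 CPM in FOSL1sh3, 38.3 to 41.6 CPM in FOSL1sh10 and 61.1 to 65.4 CPM in GFPsh.

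Among the 20 carriers of organic acids, organic cations, bile acids, peptides and urea, 2 rose and 1 fell with each hairpin (15% called). Over all genes tested, 10.9% were called with FOSL1sh3 and 5.28% with FOSL1sh10. The class medians were 0.18 with FOSL1sh3 and 0.20 with FOSL1sh10. SLC16A5 (chr17:75087727-75106162, plus strand), a member of the monocarboxylate transporter family, separated the 3 groups completely. It had 95.0, 107 and 126 CPM in FOSL1sh3, 41.6, 38.3 and 39.3 CPM in FOSL1sh10, and 61.1, 65.4 and 62.2 CPM in GFPsh. It rose with FOSL1sh3 by 0.80 on the log2 scale (SE 0.14, adjusted p = 0.00168) and fell with FOSL1sh10 (log2 -0.66, SE 0.14, adjusted p = 0.00785). FOSL1sh3 against FOSL1sh10 gave 1.46 (SE 0.14, adjusted p = 4.63e-06), and the 3 calls were kept in all 15 alternatives.

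SLC16A1, the lactate and pyruvate transporter MCT1, had 26.7, 38.9 and 31.7 CPM in FOSL1sh3, 43.1, 62.1 and 56.3 CPM in FOSL1sh10, and 46.6, 39.3 and 51.4 CPM in GFPsh. It was not called against GFPsh with either hairpin (log2 -0.50 with FOSL1sh3 and 0.24 with FOSL1sh10). It was lower in FOSL1sh3 than in FOSL1sh10 by log2 -0.74 (adjusted p = 0.0103), and this call ended without FOSL1sh10 replicate 2 (adjusted p = 0.076). SLC17A9, which loads nucleotides such as ATP into vesicles, had 9.24, 10.1 and 8.27 CPM in FOSL1sh3, 16.1, 15.4 and 14.6 CPM in FOSL1sh10, and 7.72, 8.67 and 6.94 CPM in GFPsh. The FOSL1sh10 libraries stood above all others, and the rise of 0.98 (SE 0.20, adjusted p = 0.00515) was kept in all 15 alternatives.

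SLC18B1, a vesicular polyamine transporter, fell with FOSL1sh3 to 2.67, 5.05 and 2.29 CPM, against 8.55, 6.86 and 6.61 CPM in GFPsh (log2 -1.15, SE 0.31, adjusted p = 0.0227). The FOSL1sh10 libraries, at 4.56, 6.79 and 5.09 CPM, overlapped both other groups, and the gene was not called there (log2 -0.41). The FOSL1sh3 call ended without FOSL1sh3 replicate 1 or 3 or GFPsh replicate 1, with adjusted p up to 0.0939. SLC22A4, the ergothioneine transporter OCTN1, was scarce, at 1.64, 1.15 and 0.764 CPM in FOSL1sh3, 3.14, 3.84 and 3.46 CPM in FOSL1sh10, and 0, 0.788 and 1.43 CPM in GFPsh. Its log2 fold change of 2.15 with FOSL1sh10 (SE 0.55, adjusted p = 0.0264) was 1.63 without GFPsh replicate 1, where it had no count, and the call then ended (adjusted p = 0.074). Leaving out GFPsh replicate 2 or any FOSL1sh10 library ended it too, with adjusted p up to 0.1. SLC22A18, of the organic cation transporter family, had 74.8, 62.7 and 75.8 CPM in FOSL1sh3, 59.2, 69.8 and 80.4 CPM in FOSL1sh10, and 53.2, 45.5 and 52.5 CPM in GFPsh. All hairpin libraries lay above GFPsh. It was called with FOSL1sh3 (log2 0.50, adjusted p = 0.0367) and not with FOSL1sh10 (log2 0.47, adjusted p = 0.0716). The FOSL1sh3 call was kept in 6 of 15 alternatives, and ended without any 1 GFPsh library, FOSL1sh3 replicate 1 or 3 or FOSL1sh10 replicate 2 (adjusted p up to 0.136).

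In the 23 metal and heme transporters, 2 rose and 3 fell with FOSL1sh3 (21.7% called, median -0.14). With FOSL1sh10, 1 rose and 1 fell (8.7% called, median 0.05). Over all genes tested, 10.9% were called with FOSL1sh3 and 5.28% with FOSL1sh10. SLC48A1 (chr12:47753916-47782753, plus strand), the HRG1 transporter that moves heme out of endosomes and lysosomes, had 29.7, 21.3 and 25.3 CPM in FOSL1sh3, 11.98, 13.6 and 14.4 CPM in FOSL1sh10, and 9.10, 11.5 and 10.8 CPM in GFPsh. The FOSL1sh3 libraries lay above all others. The rise with FOSL1sh3 was 1.28 (SE 0.19, adjusted p = 0.000458), the log2 fold change with FOSL1sh10 was 0.35 (adjusted p = 0.35), and the difference between the hairpins was 0.93 (adjusted p = 0.00312). The rise and the difference were called in all 15 alternatives.

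SLC41A1 (chr1:205789093-205813748, minus strand), a magnesium transporter of the plasma membrane, went the other way. It had 5.44, 7.65 and 7.76 CPM in FOSL1sh3, 15.7, 18.4 and 14.7 CPM in FOSL1sh10, and 14.9, 15.4 and 12.6 CPM in GFPsh. The FOSL1sh3 libraries were the 3 lowest, and FOSL1sh10 overlapped GFPsh. It fell with FOSL1sh3 (log2 -1.05, SE 0.21, adjusted p = 0.00446), and FOSL1sh3 against FOSL1sh10 gave -1.24 (SE 0.21, adjusted p = 0.00102), each called in all 15 alternatives.

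Several zinc transporters were called with 1 hairpin. SLC39A9, the zinc transporter ZIP9 of the secretory pathway, had 30.1, 28.4 and 20.5 CPM in FOSL1sh3, 15.4, 13.7 and 15.3 CPM in FOSL1sh10, and 29.1, 22.8 and 26.9 CPM in GFPsh. FOSL1sh10 lay below both other groups, at log2 -0.83 over GFPsh (SE 0.18, adjusted p = 0.0109) and FOSL1sh3 at 0.83 over FOSL1sh10 (adjusted p = 0.00632). The first of these calls ended without FOSL1sh10 replicate 2 or GFPsh replicate 1 (adjusted p up to 0.0589), and the second was kept in all alternatives. SLC39A13, the zinc transporter ZIP13, rose with FOSL1sh3 to 62.7, 64.3 and 63.5 CPM, against 47.9, 45.5 and 43.3 CPM in GFPsh (log2 0.48, adjusted p = 0.0233), and FOSL1sh10 lay between at 48.8, 54.1 and 52.2 CPM. That call ended without any 1 GFPsh library (adjusted p up to 0.0838), and FOSL1sh3 against FOSL1sh10 was not called (log2 0.30, adjusted p = 0.136). SLC39A6, the zinc importer ZIP6, had 16.3, 20.3 and 10.2 CPM in FOSL1sh3, 17.5, 32.5 and 25.7 CPM in FOSL1sh10, and 15.04, 13.1 and 12.01 CPM in GFPsh. Its rise with FOSL1sh10 (log2 0.92, adjusted p = 0.0313) was lost without FOSL1sh10 replicate 2 or 3 or any 1 GFPsh library, with adjusted p up to 0.188, and the hairpins did not differ at the threshold (log2 -0.70, adjusted p = 0.0651).

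SLC31A1, the copper importer CTR1, fell with FOSL1sh3 (log2 -0.49, adjusted p = 0.0468), at 39.8, 43.7 and 58.4 CPM in FOSL1sh3 and 59.2, 66.8 and 73.5 CPM in GFPsh. SLC30A4, a zinc transporter of intracellular vesicles, fell with FOSL1sh3 (log2 -1.53, adjusted p = 0.0478), at 0.636 to 0.821 CPM in FOSL1sh3 and 2.09 to 2.21 CPM in GFPsh. They fell outside the rule for named genes and were added after their values were seen. The SLC31A1 call was kept on leaving out FOSL1sh3 replicate 3 alone among the 9 libraries (adjusted p up to 0.163), and the SLC30A4 call on leaving out none of them (adjusted p up to 0.139). The mean count of SLC30A4, 10.7, passed the minimum only through the GFPsh libraries, so its fall is tied to how the genes were chosen. SLC39A8, which imports zinc and manganese, and SLC30A1, the zinc exporter of the plasma membrane, were lower in FOSL1sh3 than in FOSL1sh10, at -0.71 and -1.17, and neither was called against GFPsh. The SLC39A8 difference was lost on leaving out FOSL1sh3 replicate 1 or 3 or any FOSL1sh10 library (adjusted p up to 0.114), and that of SLC30A1 on leaving out FOSL1sh3 replicate 1 or 3 or FOSL1sh10 replicate 3 (up to 0.0654). The summed level of the class was 936 to 965 CPM in FOSL1sh3, 937 to 997 CPM in FOSL1sh10 and 985 to 1014 CPM in GFPsh.

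The 3 equilibrative nucleoside transporters had positive log2 fold changes with FOSL1sh3 (0.10 to 0.41) and negative ones with FOSL1sh10 (-0.61 to -0.16). In edgeR's test none was called with FOSL1sh3 (1 had an unadjusted p under 0.05), 1 fell with FOSL1sh10, and 2 were higher in FOSL1sh3 than in FOSL1sh10. Over all genes tested, 10.9%, 5.28% and 12.7% were called in these comparisons. SLC29A2 (chr11:66362521-66372214, minus strand), the plasma membrane transporter ENT2 for nucleosides and nucleobases, had 54.3, 54.1 and 49.5 CPM in FOSL1sh3, 30.8, 33.6 and 32.1 CPM in FOSL1sh10, and 54.2, 48.4 and 44.4 CPM in GFPsh. FOSL1sh10 lay below all other libraries. The log2 fold change with FOSL1sh10 was -0.61 (SE 0.14, adjusted p = 0.0134), and this call ended without FOSL1sh10 replicate 1 or 3 or GFPsh replicate 1, with adjusted p up to 0.0802. FOSL1sh3 against FOSL1sh10 gave 0.71 (SE 0.14, adjusted p = 0.00294), which was called in all 15 alternatives.

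SLC29A3 (chr10:71319258-71381423, plus strand), the lysosomal transporter ENT3, had 52.5, 42.1 and 72.0 CPM in FOSL1sh3, 29.4, 22.3 and 32.4 CPM in FOSL1sh10, and 41.2, 41.3 and 42.7 CPM in GFPsh. The FOSL1sh3 values spread widely and reached the GFPsh range, and the FOSL1sh10 values were the 3 lowest. It was not called against GFPsh (log2 0.41 with FOSL1sh3, adjusted p = 0.152, and -0.57 with FOSL1sh10, adjusted p = 0.0831). The FOSL1sh10 difference was called without the low-count filter (log2 -0.58, adjusted p = 0.0307), with the replicate number as a block (log2 -0.60, adjusted p = 0.0358), without the FOSL1sh3 libraries in the fit (log2 -0.58, adjusted p = 0.0208) and without FOSL1sh3 replicate 2 or 3 (adjusted p = 0.0494 and 0.0299). Without FOSL1sh3 replicate 2 the gene was also called with FOSL1sh3 (log2 0.57, adjusted p = 0.0418). Between the hairpins it differed by 0.99 (SE 0.19, adjusted p = 0.00233) in all 15 alternatives. Its exons share 13.3% of their bases with an overlapping gene on the same strand, and those of SLC29A2 share 10.3% with B4GAT1-DT on the other strand. SLC29A1, the plasma membrane transporter ENT1, had 26.3, 19.0 and 19.5 CPM in FOSL1sh3, 18.0, 14.1 and 14.5 CPM in FOSL1sh10, and 15.9, 20.3 and 15.5 CPM in GFPsh, and was called in no comparison. The sum over the class was 115 to 141 CPM in FOSL1sh3, 70.0 to 79.0 CPM in FOSL1sh10 and 103 to 111 CPM in GFPsh. Scaled by library totals alone, the FOSL1sh10 sums still lay below both other groups, while FOSL1sh3 overlapped GFPsh.

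Of the 20 ion transporters, 2 rose and 1 fell with FOSL1sh3 (15% called, median 0.16), where 10.9% of all genes tested were called. With FOSL1sh10, 1 rose (5% called, median 0.02), where 5.28% of all genes were called. Between the hairpins edgeR's main fit called none, where 5 had an unadjusted p under 0.05 and 12.7% of all genes were called. There DESeq2 called 1, and edgeR called 2 with library totals alone, 2 without FOSL1sh3 replicate 2 and 1 without FOSL1sh3 replicate 3. The summed level of the class was 504 to 626 CPM in FOSL1sh3, 496 to 514 CPM in FOSL1sh10 and 451 to 478 CPM in GFPsh. As in the amino acid class, all hairpin libraries lay above GFPsh, also with size factors. Scaled by library totals alone, FOSL1sh3 overlapped GFPsh. SLC26A2, the sulfate transporter, had 11.1, 11.7 and 7.00 CPM in FOSL1sh3, 5.85, 8.59 and 5.502 CPM in FOSL1sh10, and 3.72, 3.94 and 4.30 CPM in GFPsh. Every hairpin library lay above every GFPsh library. It rose with FOSL1sh3 by 1.31 (SE 0.27, adjusted p = 0.00547) in all 15 alternatives, and its log2 fold change with FOSL1sh10 was 0.73 (SE 0.28, adjusted p = 0.138).

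SLC12A7, the potassium-chloride cotransporter KCC4, had 169, 187 and 246 CPM in FOSL1sh3, 195, 172 and 175 CPM in FOSL1sh10, and 111, 149 and 152 CPM in GFPsh. All hairpin libraries were above GFPsh. It was called with FOSL1sh3 (log2 0.54, SE 0.16, adjusted p = 0.0367) and not with FOSL1sh10 (log2 0.39, adjusted p = 0.177). The call was kept in 8 of 15 alternatives, and it ended without FOSL1sh3 replicate 3, FOSL1sh10 replicate 3 or any 1 GFPsh library (adjusted p up to 0.175). SLC12A9, of the cation-chloride cotransporter family, rose with FOSL1sh10 to 29.1, 22.6 and 26.3 CPM, against 18.1, 15.6 and 12.3 CPM in GFPsh (log2 0.76, SE 0.18, adjusted p = 0.0166), and FOSL1sh3 had 19.7, 20.3 and 19.3 CPM. This call needed FOSL1sh10 replicates 1 and 3 and GFPsh replicates 2 and 3 (without one of them, adjusted p up to 0.0927). SLC4A11, of the bicarbonate transporter family, fell with FOSL1sh3 (log2 -0.70, adjusted p = 0.0395), at 6.49 to 8.91 CPM in FOSL1sh3 and 12.01 to 14.1 CPM in GFPsh. It too was named after its value was seen, and its call was kept on leaving out 2 of the 9 libraries (adjusted p up to 0.151).

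In the mitochondrial carrier family, the largest class with 36 genes, 1 gene rose and 3 fell with FOSL1sh3 (11.1% called, median -0.12). With FOSL1sh10, 3 rose and none fell (8.33% called, median -0.02). Over all genes tested, 10.9% were called with FOSL1sh3 and 5.28% with FOSL1sh10. SLC25A13, the aspartate and glutamate carrier citrin, had 13.3, 16.3 and 9.80 CPM in FOSL1sh3, 24.5, 24.8 and 23.8 CPM in FOSL1sh10, and 25.1, 18.6 and 21.1 CPM in GFPsh. FOSL1sh3 lay below both other groups. It fell with FOSL1sh3 (log2 -0.71, SE 0.20, adjusted p = 0.0262). Replicates 1 and 3 of FOSL1sh3 and of GFPsh were each needed for this call (adjusted p up to 0.132). FOSL1sh3 against FOSL1sh10 gave -0.89 (adjusted p = 0.00617) in all alternatives.

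SLC25A24, the carrier of ATP-magnesium and phosphate, had 17.4, 26.3 and 19.1 CPM in FOSL1sh3, 29.95, 36.4 and 31.4 CPM in FOSL1sh10, and 38.5, 27.1 and 39.9 CPM in GFPsh. It fell with FOSL1sh3 (log2 -0.75, adjusted p = 0.0176), and the same 4 libraries were each needed (adjusted p up to 0.0803). SLC25A40, a glutathione carrier, had 4.21, 3.61 and 1.91 CPM in FOSL1sh3, 2.85, 3.51 and 4.08 CPM in FOSL1sh10, and 7.86, 8.10 and 5.07 CPM in GFPsh. All hairpin libraries lay below GFPsh, and the gene was called with FOSL1sh3 (log2 -1.10, SE 0.32, adjusted p = 0.0323) and not with FOSL1sh10 (log2 -0.99, SE 0.31, adjusted p = 0.0728). The call was lost without FOSL1sh3 replicate 3 or GFPsh replicate 1 or 2 (adjusted p up to 0.127). SLC25A35, an orphan carrier, rose with FOSL1sh3 by 1.13 (adjusted p = 0.0396), at 3.31 to 3.59 CPM in FOSL1sh3 and 1.46 to 1.66 CPM in GFPsh. It was named after its value was seen, its exons share 33.2% of their bases with RANGRF on the other strand, and its call was kept on leaving out 1 of the 9 libraries (adjusted p up to 0.107).

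The carriers that rose with FOSL1sh10 were SLC25A37, SLC25A33 and SLC25A30. SLC25A37, the mitochondrial iron importer mitoferrin, had 72.4, 66.4 and 67.6 CPM in FOSL1sh3, 100.4, 90.8 and 82.5 CPM in FOSL1sh10, and 54.9, 66.3 and 59.0 CPM in GFPsh. The FOSL1sh10 libraries stood above all others (log2 0.60, SE 0.14, adjusted p = 0.0123). SLC25A33, a pyrimidine nucleotide carrier, had 22.2, 28.1 and 27.4 CPM in FOSL1sh3, 47.4, 50.2 and 40.1 CPM in FOSL1sh10, and 26.2, 29.1 and 33.0 CPM in GFPsh (log2 0.64 with FOSL1sh10, adjusted p = 0.0224). SLC25A30, of the same carrier family, had 6.88, 10.5 and 8.40 CPM in FOSL1sh3, 18.5, 18.1 and 15.6 CPM in FOSL1sh10, and 8.69, 10.1 and 11.5 CPM in GFPsh (log2 0.78 with FOSL1sh10, adjusted p = 0.0303). In SLC25A33 and SLC25A30 FOSL1sh3 overlapped GFPsh, and in SLC25A37 it lay just above. The SLC25A37 call ended without FOSL1sh10 replicate 1 or 2 or GFPsh replicate 1 (adjusted p up to 0.0876). The SLC25A33 call was lost without replicate 1 or 2 of either group (up to 0.124), and the SLC25A30 call without any 1 library of FOSL1sh10 or GFPsh (up to 0.137). Between the hairpins, SLC25A33 (log2 -0.83) and SLC25A30 (log2 -1.02) were lower in FOSL1sh3 in all 15 alternatives.

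The most abundant counts of the class came from carriers that were not called. SLC25A5, the ADP and ATP exchanger, had 974, 926 and 771 CPM in FOSL1sh3, 933, 953 and 879.9 CPM in FOSL1sh10, and 1030.0, 1051 and 1103 CPM in GFPsh (log2 -0.25 with FOSL1sh3 and -0.20 with FOSL1sh10). SLC25A3, the phosphate carrier, had 599, 763 and 569 CPM in FOSL1sh3, 717, 760.2 and 654 CPM in FOSL1sh10, and 843, 794 and 804 CPM in GFPsh (log2 -0.34 and -0.20). In both genes all hairpin libraries lay below all GFPsh libraries, but neither passed the test. Both have near-identical copies elsewhere in the genome, so their counts are uncertain. The class sum was 2442 to 2714 CPM in FOSL1sh3, 2641 to 2794 CPM in FOSL1sh10 and 2852 to 3013 CPM in GFPsh. Scaled by library totals alone, the FOSL1sh10 sum was 100.1% of GFPsh, against 93.2% with TMM, and it then overlapped GFPsh. That of FOSL1sh3 stayed below GFPsh, at 84.6% against 88.7%.

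**Figure D3:**
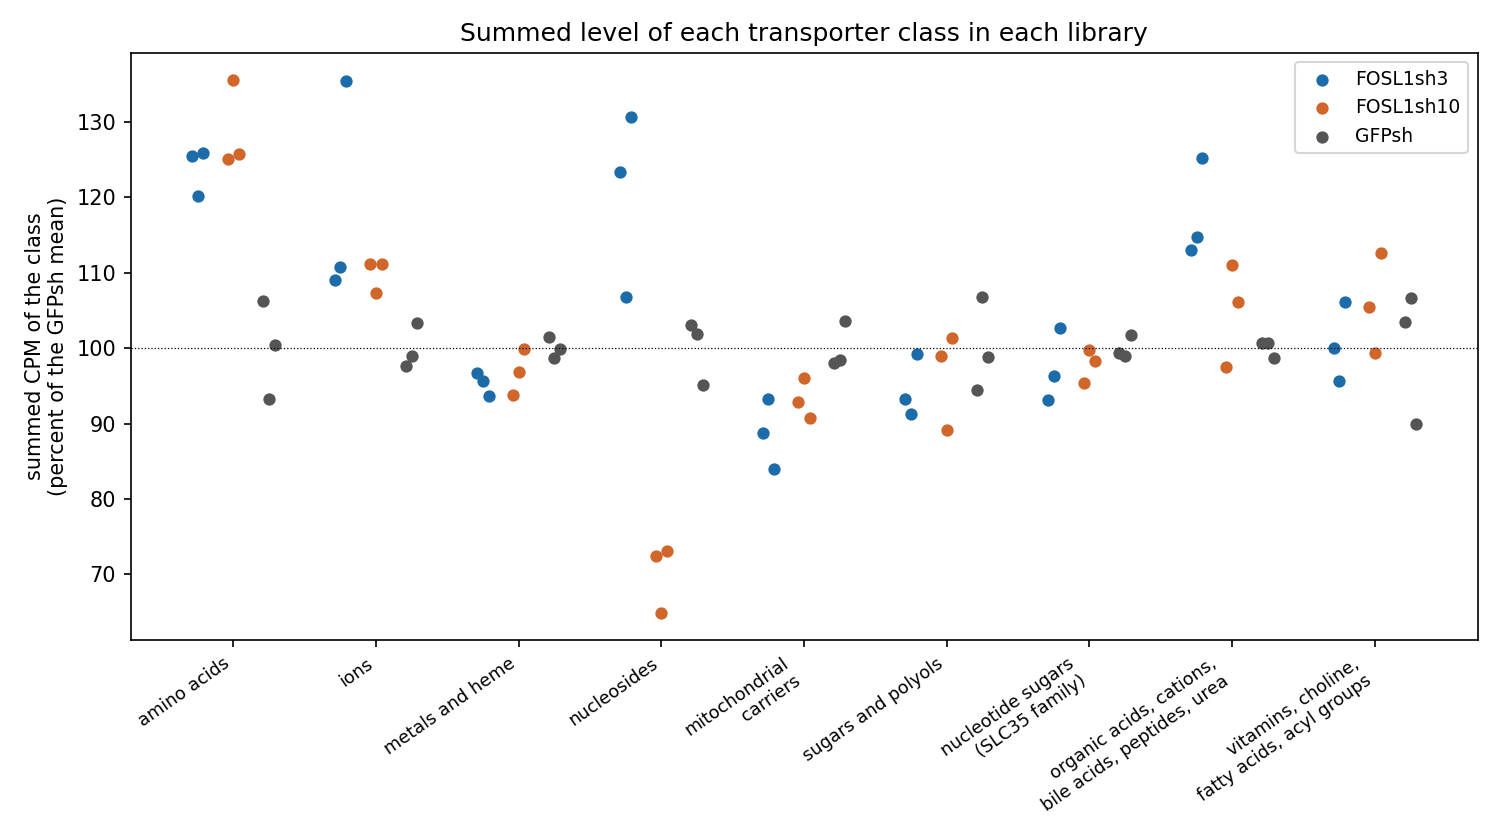
Summed CPM of each transporter class in each library, as a percentage of the GFPsh mean (y axis), by class (x axis) and group (colours). The amino acid class averages 124% in FOSL1sh3 and 129% in FOSL1sh10, and the ion class 118% and 110%. The nucleoside class averages 120% and 70.1%, and the mitochondrial carriers 88.7% and 93.2%.

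The other classes can be set beside all genes tested, of which 10.9% were called with FOSL1sh3 and 5.28% with FOSL1sh10. The shares called were 7.14% with each hairpin for sugar and polyol carriers, and 4.55% and 0% for the SLC35 family. They were 10.5% and 5.26% for carriers of vitamins, choline, fatty acids and acyl groups. Among 14 sugar and polyol carriers, SLC2A11, a facilitative hexose transporter, rose with FOSL1sh3 to 14.1, 10.7 and 7.89 CPM, against 5.79, 4.84 and 6.503 CPM in GFPsh (log2 0.93, adjusted p = 0.0256), and FOSL1sh10 had 5.85, 6.79 and 8.56 CPM. That call ended without FOSL1sh3 replicate 1 or GFPsh replicate 1 or 2 (adjusted p up to 0.122), and 18.4% of its exon bases lie in overlapping genes. SLC2A3, the glucose transporter GLUT3, had 4.82, 4.62 and 4.96 CPM in FOSL1sh3, 2.71, 1.47 and 1.94 CPM in FOSL1sh10, and 3.72, 6.08 and 3.64 CPM in GFPsh. It fell with FOSL1sh10 (log2 -1.16, SE 0.33, adjusted p = 0.0492) and was kept in 5 of 15 alternatives, with adjusted p up to 0.223 on leaving out GFPsh replicate 2. Its near-identical relative SLC2A14 makes its count uncertain. SLC2A8 and SLC2A12, further members of the glucose transporter family, were lower in FOSL1sh3 than in FOSL1sh10 (log2 -0.76 and -1.61). Without FOSL1sh10 replicate 3, which held the highest SLC2A12 level, that gene's difference was -1.02 (adjusted p = 0.236), and its call was also lost without FOSL1sh3 replicate 1 or 3 or FOSL1sh10 replicate 2. The SLC2A8 call was lost without replicate 1 or 2 of FOSL1sh3 or replicate 1 or 3 of FOSL1sh10 (adjusted p up to 0.132), and also in a fit without GFPsh.

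Of the 22 SLC35 genes, SLC35B3, which carries the sulfate donor PAPS into the Golgi apparatus, fell with FOSL1sh3 to 8.21, 9.95 and 10.8 CPM, against 17.0, 13.4 and 18.5 CPM in GFPsh (log2 -0.76, SE 0.20, adjusted p = 0.0233). FOSL1sh10 had 13.8, 14.02 and 11.2 CPM, in part within the GFPsh range. The call ended without FOSL1sh3 replicate 1 or GFPsh replicate 1 or 3 (adjusted p up to 0.0939). None of this class was called with FOSL1sh10 in edgeR's test, where 1 had an unadjusted p under 0.05. Its summed level overlapped between all 3 groups, at 634 to 698 CPM in FOSL1sh3, 649 to 679 CPM in FOSL1sh10 and 674 to 692 CPM in GFPsh.

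Of the 19 carriers of vitamins, choline, fatty acids and acyl groups, SLC27A2, a fatty acid transport protein with acyl-CoA synthetase activity, fell with FOSL1sh3. It had 2.05, 4.33 and 1.40 CPM in FOSL1sh3, 4.85, 4.30 and 4.69 CPM in FOSL1sh10, and 5.93, 6.53 and 9.15 CPM in GFPsh. The hairpin libraries all lay below GFPsh. The log2 fold change was -1.51 with FOSL1sh3 (SE 0.34, adjusted p = 0.00997) and -0.65 with FOSL1sh10 (adjusted p = 0.275). The FOSL1sh3 call ended without GFPsh replicate 3 (adjusted p = 0.0561), and 19.9% of its exon bases are shared with ATP8B4 on the other strand. SLC44A4, of the choline transporter-like family, rose with FOSL1sh10, with 7.59, 7.21 and 8.53 CPM in FOSL1sh3, 10.6, 7.24 and 13.96 CPM in FOSL1sh10, and 3.72, 5.51 and 6.39 CPM in GFPsh. All hairpin libraries lay above GFPsh (log2 0.57 with FOSL1sh3, adjusted p = 0.194, and 1.01 with FOSL1sh10, adjusted p = 0.0318). Its call was lost when FOSL1sh10 replicate 1 or 3 or GFPsh replicate 1 or 2 was left out (adjusted p up to 0.208). SLC44A2, of the same family, rose with FOSL1sh3 by 0.40 (adjusted p = 0.0488), at 92.9 to 108 CPM in FOSL1sh3 and 76.2 to 78.2 CPM in GFPsh. It was named after its value was seen, and the call was kept in 3 of 15 alternatives (adjusted p up to 0.157).

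The 4 genes that carry an SLC symbol but encode no transporter (SLC4A1AP, SLC22A18AS, SLC7A6OS and SLC2A4RG) and the 2 genes given no class (SLC66A2 and SLC66A3) were called in no comparison by edgeR's test with TMM scaling, nor by DESeq2 in the comparisons of 2 groups. With library totals alone, 1 of the 4 was called between the hairpins. SLC66A3, the one of its pair with the smaller p in the mean of both hairpins, had log2 fold changes of -0.28 with FOSL1sh3 and -0.13 with FOSL1sh10.

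The hairpins also differed from each other. FOSL1sh3 against FOSL1sh10 called 28 solute carrier genes (14.9%), 11 higher and 17 lower in FOSL1sh3, where 12.7% of all genes tested were called, 5.74% higher and 7% lower. Scaled by library totals alone, there were 7 higher and 27 lower, where 17.6% of the 2192 calls over all genes were higher. On that scaling SLC25A11, SLC38A10, SLC35B2 and SLC35E1 were no longer called. Without FOSL1sh3 replicate 3 there were 17 calls, beside 1051 over all genes tested. Leaving out 1 FOSL1sh10 library gave 18, 14 and 17, beside 1177, 712 and 907 over all genes. Of the 28, 15 were also called against GFPsh with at least 1 hairpin and 13 were not. In 10 genes the call was kept in all 15 alternatives, and these were SLC16A5, SLC41A1, SLC29A3, SLC25A33, SLC29A2, SLC48A1, SLC25A30, SLC25A13, SLC39A9 and SLC7A2. By class, 7 of 25 amino acid transporters (28%), 5 of 23 metal and heme transporters (21.7%) and 2 of 3 nucleoside transporters were called. So were 3 of 14 sugar and polyol carriers (21.4%) and 3 of 20 carriers of organic acids and related compounds (15%). The shares were 5 of 36 mitochondrial carriers (13.9%) and 3 of 22 SLC35 genes (13.6%), near that of all genes. None of the ion transporters or of the carriers of vitamins, choline, fatty acids and acyl groups was called.

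**Figure D4:**
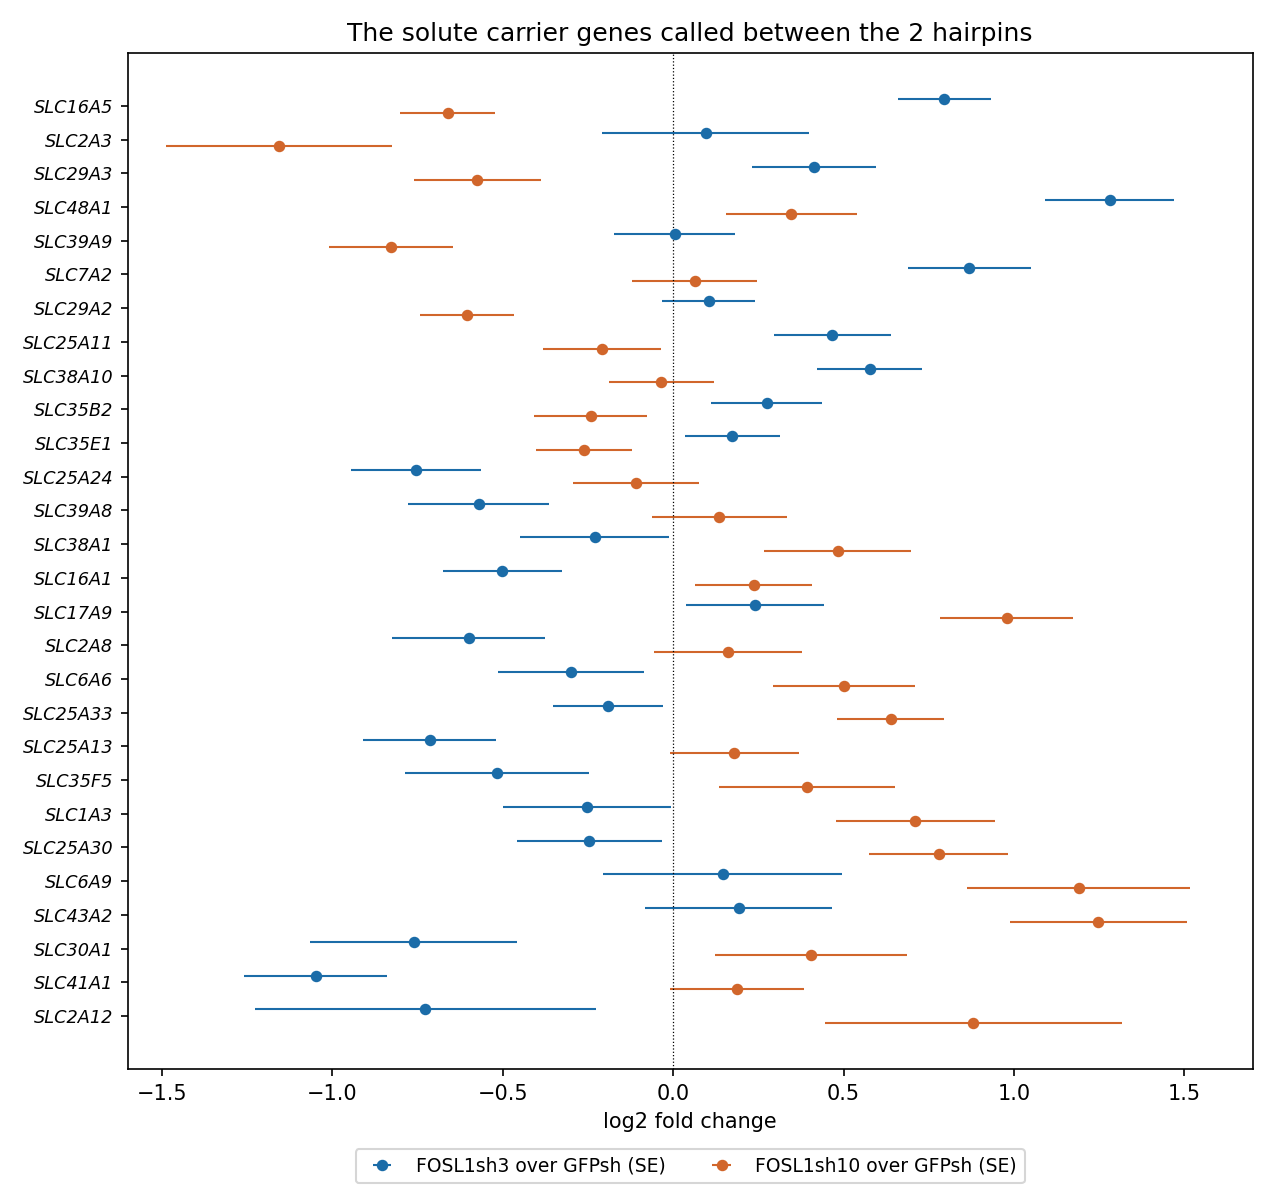
Log2 fold change over GFPsh (x axis) with its SE for FOSL1sh3 and FOSL1sh10, for the 28 solute carrier genes called between the hairpins (y axis, sorted by FOSL1sh3 over FOSL1sh10). SLC16A5 at the top lies at 0.80 and -0.66, and SLC41A1 near the bottom at -1.05 and 0.19.

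**Figure D5:**
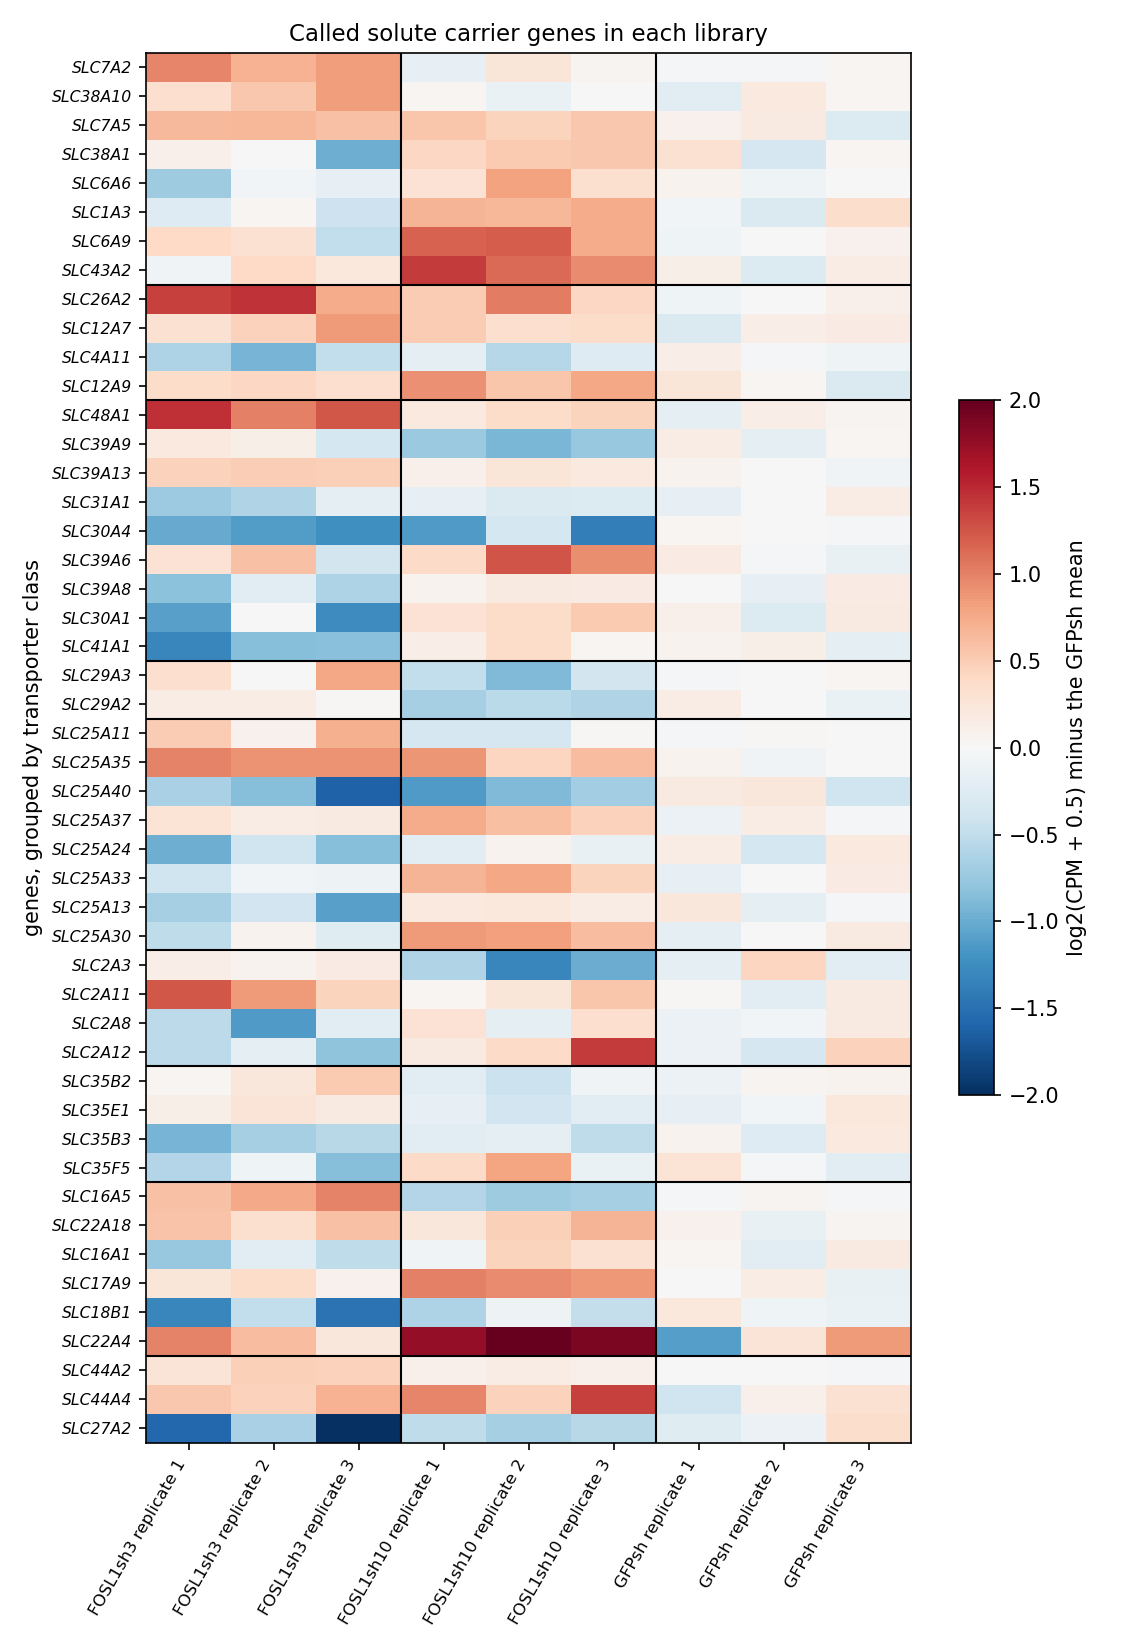
Level of the 48 solute carrier genes called in any comparison (y axis, grouped by class with black lines) in each library (x axis), as log2(CPM + 0.5) minus the GFPsh mean. Red is higher and blue is lower than GFPsh, and SLC7A5 is red in all 6 hairpin libraries.

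With the mean of both hairpins against GFPsh, 9 solute carrier genes were called, 6 higher and 3 lower (4.79%), where 6.22% of all genes tested were, 3.25% higher and 2.97% lower. They were SLC7A5, SLC26A2, SLC48A1, SLC12A9, SLC17A9 and SLC22A18, which were higher, and SLC25A40, SLC27A2 and SLC30A4, which were lower. None was kept in all 15 alternatives. Leaving out 1 GFPsh library gave 3, 2 and 2 calls, beside 316, 454 and 312 over all genes tested. Leaving out FOSL1sh10 replicate 1 or 3 gave 5 and 4, beside 529 and 524 over all genes, where the main fit gave 797. The libraries of FOSL1sh3 lay all on one side of all GFPsh libraries for 53 solute carrier genes (28.2%), and those of FOSL1sh10 for 67 (35.6%), beside 29.2% and 27.3% of all genes tested. The sum over all 188 genes was 99.6% of GFPsh in FOSL1sh3 and 101% in FOSL1sh10 with TMM, where the groups overlapped. With library totals alone it was 95.0% and 109%, and the 3 groups did not overlap.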

How the data were processed

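Each library came as a deposited table of raw read counts by gene. featureCounts 1.6.0 had summed reads across exons (GENCODE release 28), without options for strand, multi-mapping or overlapping genes, per the file headers. The submitters' processing notes name FastQC 0.11.5, STAR 2.5.3a and hg38. Reads on exon bases that overlapping or antisense genes share therefore cannot be assigned to either gene, and can be missing from both counts. The shares of exon bases given above are over whole genes and do not measure the share of reads affected. Near-identical copies (SLC25A5, SLC25A3, SLC35E2A, SLC35E2B, SLC6A8) can lose reads too. SLC25A6 is listed at 0 in all libraries. The sources used here do not state whether molecular identifiers were collapsed, and the 3-count limit reflects counting error alone.

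Stable identifiers gave current symbols for 57754 of 58381 genes, and gene types and exon overlaps for 58216 from GENCODE release 29. Members whose older symbol was not SLC numbered 4, and 11 SLC-named genes of other types were not taken. Tests used edgeR 4.0.16 in R 4.3.3 (default low-count filter, minimum count 10 and total 15; TMM scaling; quasi-likelihood F test). All 9 libraries entered 1 model, and p-values were Benjamini-Hochberg adjusted over 12814 genes. Groups came from the sample titles. SE was computed as |log2 fold change| divided by the root of the F statistic, and CPM is scaled by TMM. The common biological coefficient of variation was 16.4%. The procedure was run on simulated counts that had the same dispersion for every gene and changes in FOSL1sh3 alone. That setting is simpler than these data, so the simulation is not used as support for any call. Replicates of a group differed by more than sampling noise (chi-square per degree of freedom 9.36 to 30.9).

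Named genes were those called with both hairpins, up to 15 further genes per hairpin and 12 between the hairpins by smallest p, all nucleoside transporters and 1 gene of each class with no call, 35 in all. Other genes, such as SLC3A2, SLC1A3, SLC6A6, SLC38A1, SLC39A8, SLC30A1, SLC2A8, SLC2A12, SLC25A5 and SLC25A3, were chosen after their values were seen. The genes, classes and lists were chosen with earlier results of these data known. Alternatives were RLE size factors, library totals alone, no low-count filter, DESeq2 1.42.0, only the groups compared, a replicate block, a minimum mean of 30 counts (153 genes) and each of the 9 libraries left out. A lone pair left in a group is assumed to vary like the other groups.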

Additional observations from a re-analysis of the deposited data

Results flagged for a closer look

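For 28 solute carrier genes the response to the hairpins differed, as tested by FOSL1sh3 against FOSL1sh10 in edgeR's quasi-likelihood test (adjusted p under 0.05 over all genes tested). Values are log2 fold changes of FOSL1sh3 over FOSL1sh10, and they are given without explanation.

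Higher in FOSL1sh3 were SLC16A5 at 1.46, SLC2A3 at 1.25, SLC29A3 at 0.99, SLC48A1 at 0.93, SLC39A9 at 0.83, SLC7A2 at 0.81, SLC29A2 at 0.71, SLC25A11 at 0.68, SLC38A10 at 0.61, SLC35B2 at 0.52 and SLC35E1 at 0.44. SLC25A11 is the oxoglutarate and malate carrier, and SLC35B2 carries PAPS into the Golgi apparatus. SLC25A11 had 43.8, 32.3 and 50.3 CPM in FOSL1sh3 and 24.0, 24.1 and 31.0 CPM in FOSL1sh10, and its groups did not overlap.

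Lower in FOSL1sh3 were SLC2A12 at -1.61, SLC41A1 at -1.24, SLC30A1 at -1.17, SLC43A2 at -1.06, SLC6A9 at -1.04, SLC25A30 at -1.02, SLC1A3 at -0.96, SLC35F5 at -0.91, SLC25A13 at -0.89, SLC25A33 at -0.83, SLC6A6 at -0.80, SLC2A8 at -0.76, SLC16A1 at -0.74, SLC17A9 at -0.74, SLC38A1 at -0.71, SLC39A8 at -0.71 and SLC25A24 at -0.65. SLC2A12 was scarce, with 1.03, 1.44 and 0.764 CPM in FOSL1sh3 and 2.00, 2.37 and 5.30 CPM in FOSL1sh10, and 38.9% of its exon bases are shared with TBPL1 on the other strand.

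Of these, the 15 genes also called against GFPsh include SLC16A5, the only solute carrier gene called in opposite directions with the hairpins. In the other 13 each hairpin's own change missed the threshold.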

How the results depend on the processing

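No call changed direction under any of the alternatives run. RLE size factors gave the same counts of calls (22 with FOSL1sh3, 15 with FOSL1sh10, 9 with their mean, 28 between the hairpins). Fitting only the groups compared gave 13 calls with FOSL1sh3, 22 with FOSL1sh10 and 25 between the hairpins, and the cause was not tested. Without the low-count filter, 2 genes moved the same way with both hairpins at the threshold. Leaving out 1 library at a time gave 7 to 27 calls with FOSL1sh3 and 5 to 18 with FOSL1sh10. It gave 2 to 12 with the mean of both, 14 to 32 between the hairpins and 0 to 2 shared by both in direction. Over all genes tested, these fits gave 599 to 1803 calls with FOSL1sh3 and 347 to 919 with FOSL1sh10. They gave 312 to 1002 with the mean of both and 712 to 1920 between the hairpins. All 15 alternatives kept 6 of the 22 calls with FOSL1sh3, 3 of the 15 with FOSL1sh10 and 10 of the 28 between the hairpins.

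Whether libraries with the same replicate number belong together could not be decided from 3 libraries per group. Correlations of same-numbered libraries ranged from -0.12 to 0.18, and those of differently numbered libraries from -0.17 to 0.16. Between FOSL1sh3 and GFPsh the same-numbered correlations were all positive (0.18, 0.03 and 0.13), while those of the other group pairs took both signs. With the replicate number as a block there were 21, 15, 9 and 30 calls, and 1 gene shared by both hairpins in direction.

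Depth limits the scarce genes most. At 0.283 to 0.435 CPM for 3 counts, SLC22A4, SLC30A4 and SLC2A12 rest on few counts in some libraries.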

Other observations

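Carriers without an SLC symbol and the pumps and partner proteins of solute transport were counted in the same fit. Of 37 tested carriers without an SLC symbol, none rose and 5 fell with FOSL1sh3 (median log2 fold change -0.18), and 1 rose and 2 fell with FOSL1sh10 (median -0.07). Over all genes tested, 5.21% were called higher and 5.65% lower with FOSL1sh3, and 3.13% higher and 2.15% lower with FOSL1sh10. CTNS, the lysosomal cystine exporter, rose with FOSL1sh10 and averaged 15.5 ± 2.18 CPM in FOSL1sh3, 17.9 ± 0.974 CPM in FOSL1sh10 and 10.5 ± 1.07 CPM in GFPsh (SD, n = 3 each; log2 0.77 with FOSL1sh10, adjusted p = 0.0191 in edgeR's test). MPC1, a subunit of the mitochondrial pyruvate carrier, fell with FOSL1sh3, at 58.8 ± 6.52 CPM in FOSL1sh3, 59.6 ± 4.45 CPM in FOSL1sh10 and 80.7 ± 8.79 CPM in GFPsh (SD; log2 -0.46, adjusted p = 0.0452). MFSD2A, a lysophospholipid carrier, fell with FOSL1sh3 (log2 -1.498, adjusted p = 0.0031) and had a log2 fold change of -0.15 with FOSL1sh10. NIPAL2, of a magnesium transporter family, fell with FOSL1sh10 (log2 -0.72, adjusted p = 0.0317).

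Of 23 tested pumps and partners, 1 rose and 6 fell with FOSL1sh3 (median -0.17), 3 rose and 1 fell with FOSL1sh10 (median 0.01), and 1 was higher and 7 were lower in FOSL1sh3 than in FOSL1sh10. Between the hairpins, 5.74% of all genes tested were called higher in FOSL1sh3 and 7% lower, and the shares against GFPsh are those given above. ATP2B4, a calcium pump of the plasma membrane, rose with both hairpins, at log2 1.24 with FOSL1sh3 (adjusted p = 0.0056) and 1.15 with FOSL1sh10 (adjusted p = 0.0116). CA2, a carbonic anhydrase that works with bicarbonate exchangers, fell with FOSL1sh3 (log2 -1.41, adjusted p = 0.000246) and had a log2 fold change of -0.22 with FOSL1sh10. TFRC, the transferrin receptor, was named after its values were seen, and averaged 133 ± 9.14 CPM in FOSL1sh3, 304 ± 8.34 CPM in FOSL1sh10 and 214 ± 11.8 CPM in GFPsh (SD, n = 3 each). It fell with FOSL1sh3 (log2 -0.69, adjusted p = 0.0029) and rose with FOSL1sh10 (log2 0.51, adjusted p = 0.0235).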
